A study of Homo sapiens with 16 samples.

Results

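A set of 9 long non-coding RNAs (lncRNAs) was followed through dexamethasone (Dex) and TAK-981 treatment of myeloma cells: MALAT1, NEAT1 and TUG1, and 6 RNAs that host small nucleolar RNAs (snoRNAs) in their introns, which were GAS5, SNHG1, SNHG5, SNHG8, SNHG12 and SNHG15. They are 9 of the 23354 genes counted and were selected by gene symbol. The selection was made with earlier values of the same libraries in view, in particular the share of all counts that MALAT1 takes up. MALAT1 is therefore given as values with their errors and without a test, and counts of changed genes are over the 8 other lncRNAs. All 9 passed the filter on low counts, as did 14215 genes in all.

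The data were read counts from RNA-seq of total RNA after depletion of ribosomal RNA in MM1S, a human myeloma line sensitive to glucocorticoids, and in its resistant derivative MM1R. Treatment lasted 48 h, with vehicle (Veh), with TAK-981 (TAK) at 0.1 μM, with Dex at 1 μM, or with both at these doses (combo), and each of the 8 groups had 2 libraries. TAK-981 inhibits the SUMO E1 enzyme, which starts the attachment of SUMO proteins to other proteins, and Dex is a synthetic glucocorticoid used to treat myeloma. Each line is 1 cell line, and no source said that the 2 libraries of a group came from separate cultures, so the p-values measure the spread between these libraries, which may be technical.

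The libraries held 15707587 to 24796539 counts. The 9 plasma cell markers examined summed to 4719 to 10809 CPM (counts scaled to the library total) in each library, against at most 5.76 CPM for the T cell markers and at most 1.99 CPM for each of the myeloid, epithelial and fibroblast lists. FKBP5, a classical glucocorticoid target, was higher by 4.60 on the log2 scale in MM1S after Dex and by 0.02 in MM1R. The spread between the 2 libraries was widest in MM1S TAK and MM1S Dex. Its chi-square per degree of freedom, a ratio of variance to that of counting noise, was 21.2 and 19.2 there, against 2.08 to 9.14 in the other 6 groups. In bulk libraries such as these, fewer cells with an RNA and less of it per cell cannot be told apart.

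MALAT1 is a nuclear RNA that collects in nuclear speckles, the bodies where splicing factors are stored, and its 3′ end is made by RNase P rather than by polyadenylation. NEAT1 is the RNA scaffold around which paraspeckles assemble, and it is made as a short and a long form that share their 5′ end and were counted here as 1 gene. The snoRNA hosts are spliced like mRNAs and release snoRNAs from their introns, while several of the spliced RNAs start with a run of pyrimidines like ribosomal protein mRNAs and are removed by nonsense-mediated decay. The spliced GAS5 RNA is known to bind the glucocorticoid receptor and to compete with its DNA sites, and TUG1 is a spliced lncRNA found in the nucleus and the cytoplasm.

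On the hg19 build used for the counts, NEAT1 (chr11:65190269-65212028) and MALAT1 (chr11:65265233-65273939) lie on the plus strand, one after the other, with SNHG1 (chr11:62619460-62623360) on the minus strand of the same chromosome. GAS5 (chr1:173833039-173837125), SNHG12 (chr1:28905050-28908383), SNHG5 (chr6:86386725-86388451) and SNHG15 (chr7:45022627-45026259) are also on the minus strand. TUG1 (chr22:31365634-31375380) and SNHG8 (chr4:119199917-119200978) are on the plus strand. The lengths used were 8.706 kb for MALAT1, 21.759 kb for NEAT1, 7.817 kb for TUG1, 1.688 kb for GAS5, 2.767 kb for SNHG1, 1.007 kb for SNHG5, 0.616 kb for SNHG8, 2.48 kb for SNHG12 and 3.132 kb for SNHG15. The counting was by gene, and whether it used strand is not given in the sources used here, so reads of overlapping or antisense transcripts could not be told apart.

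The annotated starts of 4 of the snoRNA hosts are shown because a C followed by pyrimidines at this place marks the class of growth-regulated transcripts to which snoRNA hosts are known to belong. Each line gives the 15 bases before the annotated start and the first 15 bases from it, on GRCh38.p14, with the first 5 transcribed bases in capitals.
SNHG1: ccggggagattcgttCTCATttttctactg
SNHG5: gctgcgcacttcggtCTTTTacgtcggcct
SNHG8: aaggcctcggcctttCACATtcgggaagcg
SNHG12: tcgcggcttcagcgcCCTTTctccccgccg
The windows lie at chr11:62855871-62855900, chr6:85678719-85678748, chr4:118278747-118278776 and chr1:28581859-28581888 in that order. A C at the start followed by at least 4 pyrimidines was found in SNHG5 and SNHG12, 2 of the 4, and in 4.07% of the 35116 promoters of the same table. SNHG1 starts with a C and a shorter run, and the C of SNHG8 is followed by an A. The starts listed for GAS5 and TUG1 are not shown, since they lie 5144 and 10130 bases from the far end of the gene, against 4086 and 9746 bases in the model that was counted. These are annotated starts, and the start in use in these cells was not measured.

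MALAT1 was the most counted gene of every library. Per kb of length, its level in MM1S Veh was 3274 ± 115 CPM (SD, n = 2), followed by NEAT1 at 153 ± 0.466, SNHG8 at 111 ± 2.99, GAS5 at 92.3 ± 1.92, SNHG5 at 81.4 ± 2.29, SNHG1 at 55.9 ± 2.26, SNHG12 at 39.0 ± 0.393, TUG1 at 32.1 ± 2.03 and SNHG15 at 5.72 ± 0.356 CPM per kb. No neighbours in this order had overlapping libraries. In MM1R Veh the order was the same except that SNHG8, at 114.7 ± 0.513 CPM per kb, stood above NEAT1, at 108 ± 1.56. The counts of NEAT1 were divided by 21.759 kb although its short and long forms were counted together. Its place in both orders therefore depends on the length used. In MM1S TAK the levels of SNHG1, SNHG12 and TUG1 came together at 37.8 ± 1.17, 37.3 ± 6.07 and 36.2 ± 3.97 CPM per kb and did not differ beyond their spread.

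The lncRNAs differed in how far they ranged over the 16 libraries. NEAT1 had the widest range, with its highest library 6.44 times its lowest, and MALAT1 was next at 2.26 times. SNHG15 and SNHG1 ranged 1.94 and 1.90 times, TUG1, GAS5, SNHG8 and SNHG5 1.49 to 1.58 times, and SNHG12 1.26 times. In the plot of levels by library, the points of SNHG12 therefore form a nearly flat band, while those of NEAT1 step up in the MM1S Dex and combo groups.

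**Figure D1:**
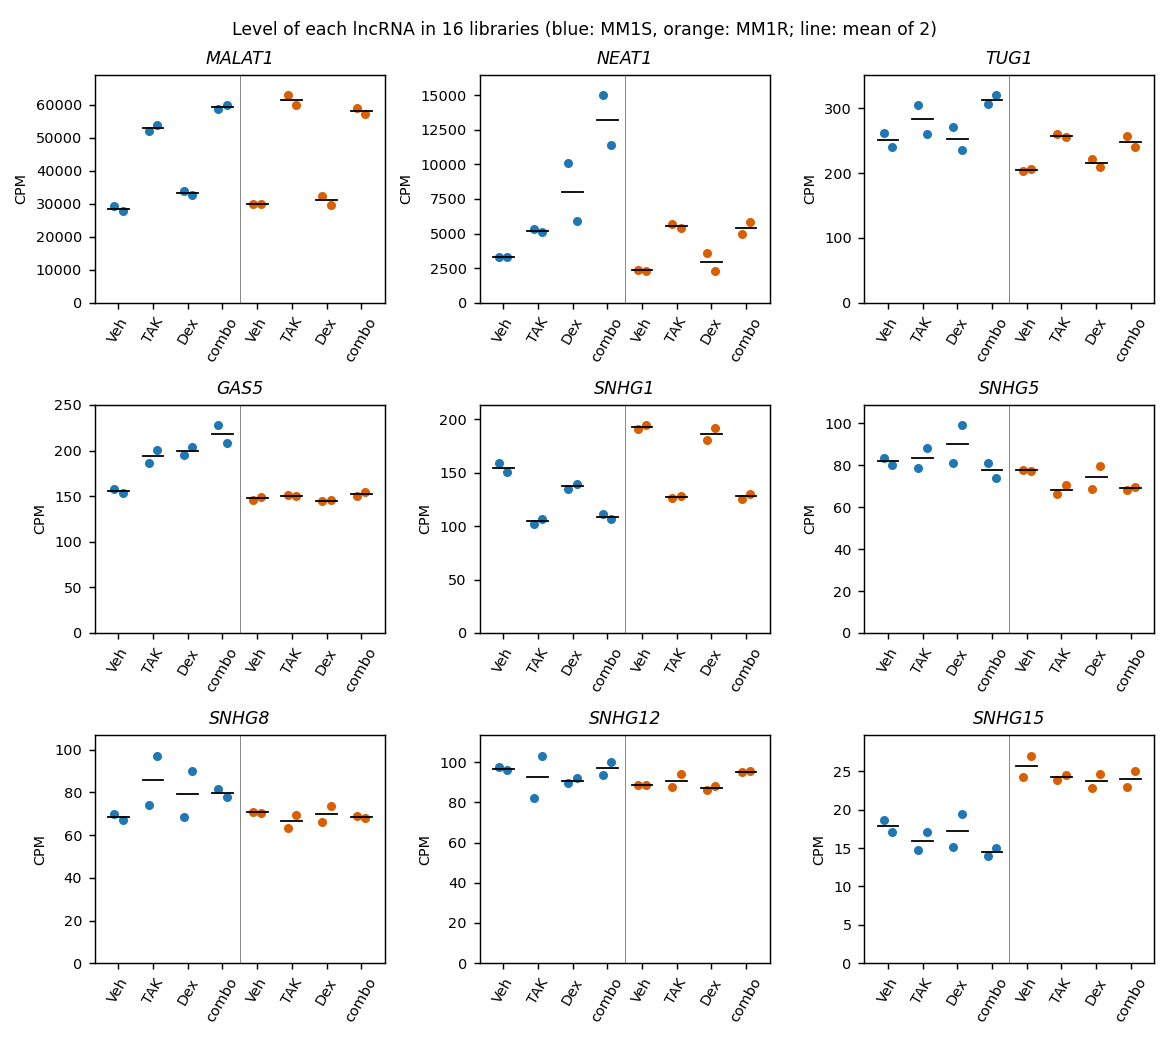
Level of each lncRNA in CPM (linear axes from 0) in the 8 groups, with 1 point per library and a line at the mean of the 2 libraries, MM1S in blue and MM1R in orange. MALAT1 is high in the 8 libraries with TAK, NEAT1 reaches 14992 CPM in MM1S combo, GAS5 is higher in the treated MM1S libraries than in MM1S Veh, and SNHG1 is low in the libraries with TAK.

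MALAT1, the speckle RNA, split the 16 libraries by TAK. In MM1S its level was 29208 and 27794 CPM in Veh, 33911 and 32559.9 in Dex, 52057 and 53806 in TAK, and 58704 and 59825 in combo. In MM1R it was 30065 and 29861 CPM in Veh, 32497 and 29734 in Dex, 62921 and 59873 in TAK, and 59171 and 57354 in combo. The 8 libraries with TAK lay between 52057 and 62921 CPM and the 8 without it between 27794 and 33911, so they did not overlap in either line. The log2 fold change of TAK against Veh was 0.89 (SE 0.0537) in MM1S and 1.03 (SE 0.0538) in MM1R, and that of combo against Dex was 0.83 (SE 0.0536) and 0.90 (SE 0.0537). The differences around Dex were smaller, at 0.22 (SE 0.0533) for Dex against Veh in MM1S and 0.05 (SE 0.0532) in MM1R, where the libraries overlapped. Between the lines, MALAT1 in Veh differed by 0.07 (SE 0.0532).

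The share of all counts taken by MALAT1 was 2.93% ± 0.111 (SD, n = 2) in MM1S Veh, 3.36% ± 0.155 in Dex, 5.26% ± 0.0570 in TAK and 6.07% ± 0.0565 in combo. In MM1R it was 2.95% ± 0.0387 in Veh, 3.10% ± 0.245 in Dex, 6.03% ± 0.206 in TAK and 5.72% ± 0.103 in combo. With NEAT1 and the 7 other lncRNAs added, the shares came to 3.36% ± 0.117 in MM1S Veh and 7.52% ± 0.209 in MM1S combo. When MALAT1 and NEAT1 were left out of the scaling, the log2 fold change of MALAT1 with TAK was 0.84 in MM1S and 1.00 in MM1R, and the median of all genes was -0.01 and -0.03.

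**Figure D2:**
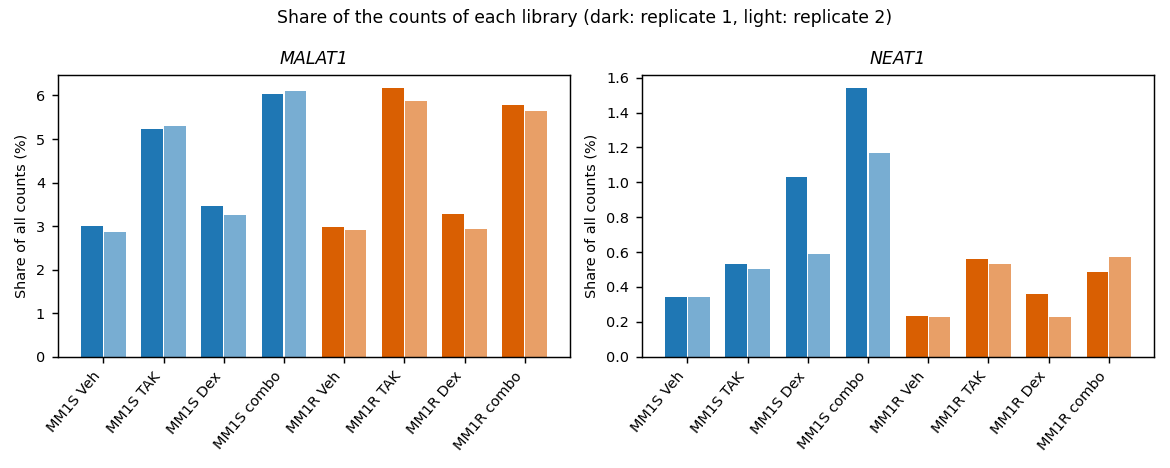
Share of all counts of a library (in %, axes from 0) taken by MALAT1 and NEAT1 in each group, with replicate 1 dark and replicate 2 light, MM1S in blue and MM1R in orange. MALAT1 lies between 2.85% and 6.17%, and NEAT1 between 0.228% and 1.54% with its highest bars in MM1S Dex and combo.

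NEAT1, the paraspeckle scaffold, passed the test for a rise with TAK in MM1R and with Dex in MM1S. Its libraries in MM1S were at 3339 and 3325 CPM in Veh, 5313 and 5122 in TAK, 10101 and 5919.8 in Dex, and 14992 and 11427 in combo. In MM1R they were at 2378 and 2329.6 CPM in Veh, 5709 and 5425 in TAK, 3602 and 2327 in Dex, and 4975 and 5813 in combo. In both lines the first Dex library lay well above the second, so the Dex groups had a far wider spread than Veh. The log2 fold change of Dex against Veh in MM1S was 1.27 (SE 0.271, adjusted p = 0.00524 by edgeR's quasi-likelihood test), and without MM1S Dex replicate 1 it was 0.83, which also passed the test. In MM1R the corresponding value was 0.33 (SE 0.267, adjusted p = 1.00, edgeR), and it turned to -0.02 without MM1R Dex replicate 1. The difference between the lines, MM1R minus MM1S, was -0.93 (SE 0.378, adjusted p = 0.105, edgeR), and it passed the test without MM1S Dex replicate 2 (-1.26, adjusted p = 0.0252, edgeR) and without MM1R Dex replicate 1 (-1.28, adjusted p = 0.0347, edgeR).

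The fit estimated the spread of NEAT1 over all 8 groups together, including the wide Dex groups. Its SE in any comparison is therefore not the spread of the compared libraries alone. With TAK, NEAT1 rose by 1.24 (SE 0.271, adjusted p = 0.00442, edgeR) in MM1R. In MM1S it was higher by 0.65 (SE 0.268), all TAK libraries lying above Veh, but the adjusted p was 0.0768 (edgeR). The difference between the lines in the TAK response, MM1R minus MM1S, was 0.59 (SE 0.378, adjusted p = 0.400, edgeR). The MM1S value passed the test when only the 2 groups were fitted and with the DESeq2 Wald test. The fit with no filter on low counts gave warnings of negative test statistics. Its pass for NEAT1 is therefore no support, and it is among the other fits counted below. Combo was above TAK by 1.34 (SE 0.271, adjusted p = 0.00482, edgeR) in MM1S, and the value in MM1R was -0.05 (SE 0.267). Combo was above Dex by 0.86 (SE 0.269, adjusted p = 0.0267, edgeR) in MM1R and by 0.72 (SE 0.268, adjusted p = 0.0541, edgeR) in MM1S. The MM1R call held in 7 of 11 other fits and was lost without either MM1R combo library or without MM1R Dex replicate 2. The counts of MALAT1 were 12.7 ± 0.122 (SD, n = 2) times those of NEAT1 in MM1R Veh, 8.55 ± 0.274 times in MM1S Veh and 4.58 ± 0.933 times in MM1S combo, so the relative amounts of these neighbouring RNAs shifted with line and treatment.

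GAS5, the host RNA known to bind the glucocorticoid receptor, rose in MM1S with either agent and its response to Dex differed between the lines. In MM1S it was at 158 and 154 CPM in Veh, 187 and 201 in TAK, 195 and 204 in Dex, and 227 and 209 in combo. In MM1R the 8 libraries lay between 145 and 155 CPM, at 146 and 149 in Veh, 151 and 149.8 in TAK, 145 and 146 in Dex, and 149.8 and 155 in combo. No treated MM1S library overlapped Veh. The log2 fold change of Dex against Veh in MM1S was 0.36 (SE 0.0599, adjusted p = 9.87e-05, edgeR) and that of TAK was 0.31 (SE 0.0599, adjusted p = 0.000269, edgeR). Combo was above TAK by a further 0.17 (SE 0.0597, adjusted p = 0.0333, edgeR), a call lost without MM1S TAK replicate 1 or MM1S combo replicate 1, where it was 0.12 and 0.11. Counting changes of method too, this call held in 7 of 11 other fits.

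With Dex in MM1R 0% of all genes passed. The study that produced these data describes glucocorticoid receptor expression as absent in that line. In MM1R the change of GAS5 was 0.03 (95% interval -0.10 to 0.15) with TAK and -0.02 (95% interval -0.15 to 0.10) with Dex. The difference between the lines in the Dex response, MM1R minus MM1S, was -0.38 (SE 0.0847, adjusted p = 0.00240 by edgeR's interaction test), and it passed in each of 15 other fits with values from -0.41 to -0.34. For TAK the difference was -0.28 (SE 0.0848, adjusted p = 0.0651, edgeR). GAS5 was the 1 lncRNA of 8 called for a difference in the Dex response, lower in MM1R, where 13.1% of all genes tested were called in that direction. The count in either direction was 3 without MM1S Dex replicate 1 and 2 without MM1S Dex replicate 2 or MM1R Dex replicate 1.

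SNHG1, the host of a cluster of C/D box snoRNAs, moved the other way. Its libraries in MM1S were at 159 and 150.3 CPM in Veh, 135 and 139.8 in Dex, 102 and 107 in TAK, and 111 and 106 in combo. In MM1R they were at 191 and 194 CPM in Veh, 180.2 and 192 in Dex, 126 and 128 in TAK, and 126 and 129.9 in combo. In each line all 4 libraries with TAK lay below all 4 without it. SNHG1 fell by 0.57 on the log2 scale (SE 0.0593, adjusted p = 2.69e-07, edgeR) with TAK in MM1S and by 0.60 (SE 0.0585, adjusted p = 1.30e-07, edgeR) in MM1R. Combo was below Dex in both lines, at log2 fold changes of -0.34 (SE 0.0596, adjusted p = 0.000155, edgeR) in MM1S and -0.54 (SE 0.0584, adjusted p = 4.77e-07, edgeR) in MM1R. It also fell with Dex in MM1S, at a log2 fold change of -0.17 (SE 0.0587, adjusted p = 0.0247, edgeR), a call lost without MM1S Veh replicate 1 or MM1S Dex replicate 1, at -0.13 and -0.15. Counting changes of method too, this call held in 7 of 11 other fits.

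TUG1 and SNHG8 had smaller increases. TUG1 rose with TAK in MM1R by 0.33 (SE 0.0777, adjusted p = 0.00149, edgeR), from 203 and 206 CPM in Veh to 260.0 and 255 in TAK, with no overlap. In MM1S its TAK libraries, at 305 and 261 CPM, overlapped those of Veh, at 262 and 239.8. The log2 fold change was 0.17 (SE 0.0775, adjusted p = 0.0761, edgeR). The lines did not differ in this response by the test, at 0.16 (SE 0.110, adjusted p = 0.407, edgeR). SNHG8, host of the H/ACA snoRNA SNORA24, was at 69.9 and 67.3 CPM in MM1S Veh and at 74.2 and 97.2 in MM1S TAK. The log2 fold change was 0.32 (SE 0.117, adjusted p = 0.0318, edgeR), but it rested on the second TAK library, since it was 0.11 without MM1S TAK replicate 2. The call was also lost without either MM1S Veh library, and it held in 5 of 11 other fits. In MM1R SNHG8 was at 70.9 and 70.5 CPM in Veh and at 63.5 and 69.5 in TAK.

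SNHG5, SNHG12 and SNHG15 passed the test in no comparison of treatments. SNHG5 lay between 66.5 and 99.0 CPM, with its 2 highest values in MM1S Dex replicate 2 and MM1S TAK replicate 2. SNHG12 lay between 82.0 and 103 CPM, and both extremes were libraries of MM1S TAK. SNHG15 lay between 13.9 and 19.5 CPM in MM1S and between 22.8 and 27.0 CPM in MM1R, so the lines did not overlap under any treatment.

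**Figure D3:**
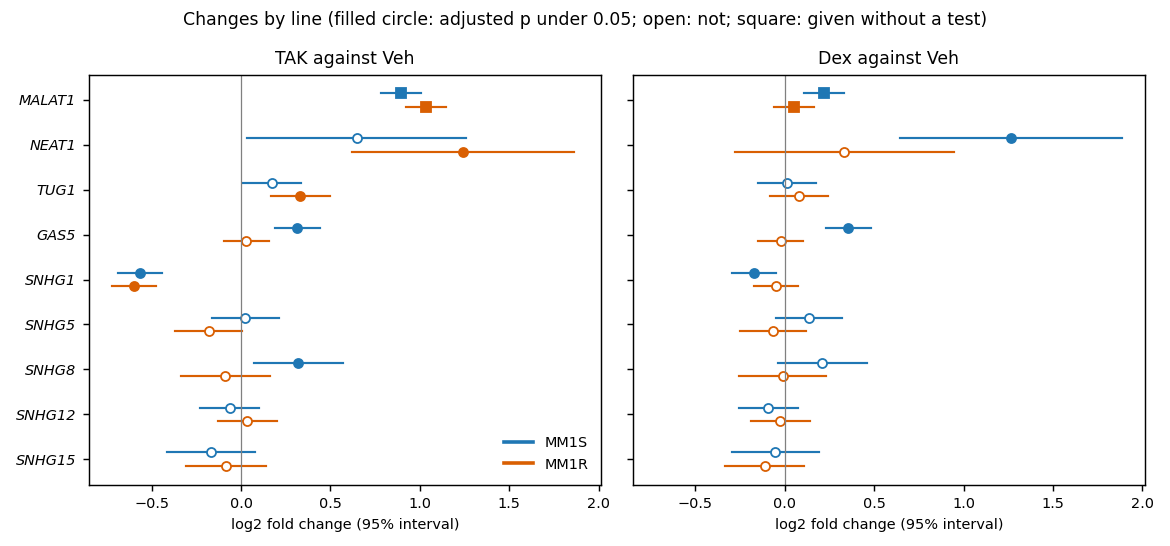
Log2 fold change of TAK (left) and Dex (right) against Veh for each lncRNA with its 95% interval, MM1S in blue and MM1R in orange. Filled circles passed an adjusted p of 0.05 and open ones did not, and MALAT1 is drawn as squares because it was not tested. With Dex, NEAT1, GAS5 and SNHG1 are the filled points and all 3 are from MM1S, while SNHG1 is the point far to the left with TAK in both lines.

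Counted over the 8 tested lncRNAs, 2 rose (GAS5 and SNHG8) and 1 fell (SNHG1) with TAK in MM1S, where 25.2% of all genes rose and 23.7% fell. With TAK in MM1R, 2 rose (NEAT1 and TUG1) and 1 fell (SNHG1), against 25.8% and 27.6% of all genes. With Dex in MM1S, 2 rose (NEAT1 and GAS5) and 1 fell (SNHG1), against 20.8% and 21.5%. These counts were thus near the shares among all genes. The same Veh libraries stood on the control side of both treatments in each line. Their median log2 fold change over the 8 lncRNAs was 0.10 with TAK in MM1S, -0.03 with TAK in MM1R and 0.07 with Dex in MM1S, beside 0.04, 0.00 and 0.01 over all genes.

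With Dex in MM1R, 0 of the 8 lncRNAs passed, as did 0% of all genes. By edgeR, 0 of the 8 had an unadjusted p under 0.05 and 395 of all genes did, and the DESeq2 Wald test also called 0 genes. Adding Dex to TAK in MM1R likewise changed 0 of the 8, with 0% of all genes called by edgeR or by DESeq2 and 214 at an unadjusted p under 0.05. In MM1S, combo was above TAK for 2 of the 8 (NEAT1 and GAS5), against 14.5% of all genes, and below it for 0, against 20.6%. Without MM1S combo replicate 1 the count was 1. The TAK libraries are shared with the comparison of TAK and Veh.

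Against Dex, combo was higher for TUG1 in MM1S, at 306 and 319.9 CPM compared with 271 and 235 and a log2 fold change of 0.31 (SE 0.0776, adjusted p = 0.00334, edgeR), a call lost without MM1S Dex replicate 2. With SNHG1, this made 1 of the 8 higher and 1 lower in MM1S, where 22.2% and 25.4% of all genes were called, but the total was 5 without MM1S Dex replicate 1 and 1 without MM1S Dex replicate 2. In MM1R, 2 were higher (NEAT1 and TUG1) and 1 lower (SNHG1), beside 23.1% and 25.3% of all genes, and the total was 1 without MM1R Dex replicate 2 or either MM1R combo library. TUG1 in that comparison had a log2 fold change of 0.20 (SE 0.0776, adjusted p = 0.0398, edgeR), which fell short of the threshold when any 1 of the 4 libraries was left out. Counting changes of method too, this call held in 4 of 11 other fits. For combo against Dex in MM1S, 5 of the 8 and 7687 of all 14215 genes had an unadjusted p under 0.05 by edgeR. More of the 8 were called there with the replicate number as a block, as given below. No departure of combo from the sum of the single agents passed for any of the 8 lncRNAs. By edgeR 2 of the 8 had an unadjusted p under 0.05 for this in MM1S (GAS5 and SNHG1), where 14.9% of all genes were called, and 0 did in MM1R, where 0% were called by edgeR or by DESeq2. DESeq2 called 0 of the 8 in MM1S, but without MM1S Dex replicate 1 edgeR called 2, and without either MM1S TAK library 1.

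The lines differed before treatment. SNHG15 was higher in MM1R Veh, at 24.3 and 27.0 CPM, than in MM1S Veh, at 18.7 and 17.1, by a log2 fold change of 0.52 (SE 0.110, adjusted p = 0.000780, edgeR). SNHG1 was also higher in MM1R by 0.31 (SE 0.0581, adjusted p = 0.000236, edgeR), and TUG1 was lower, at -0.30 (SE 0.0776, adjusted p = 0.00421, edgeR). The call of TUG1 was lost without MM1S Veh replicate 1. NEAT1 was at 0.706 times its MM1S level, a log2 difference of -0.50 (SE 0.268, adjusted p = 0.157, edgeR). This difference did not pass although the libraries did not overlap. The SE comes from the spread of NEAT1 fitted over all 8 groups, not from the Veh libraries alone. In this comparison 25.6% of all genes were higher and 22.6% lower, beside 2 and 1 of the 8. For the TAK response, 0 of the 8 differed between the lines, where 4.16% of all genes did by edgeR. There, 2 of the 8 had an unadjusted p under 0.05 (GAS5 and SNHG8), and DESeq2 called 0, but without MM1S TAK replicate 1 edgeR called 2.

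The snoRNAs that lie inside these hosts were counted as genes of their own. The table lists 26 of them, 10 in GAS5, 8 in SNHG1, 4 in SNHG12, 2 in SNHG5 and 1 each in SNHG8 and SNHG15. Of these, 13 are listed at 0 in all 16 libraries and 13 were tested, with 517 to 5472 counts each over the whole series. RNAs of this size are not captured evenly by total RNA kits, and reads in a snoRNA can also come from the unspliced host, so these counts are not levels of the mature snoRNAs.

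Both tested snoRNAs of SNHG1 fell with TAK in both lines, as their host did. SNORD28 was at 5.85 ± 0.429 CPM (SD, n = 2) in MM1S Veh and 3.36 ± 0.968 in TAK, a log2 fold change of -0.80 (SE 0.200, adjusted p = 0.00284, edgeR), and in MM1R the value was -0.46 (SE 0.188, adjusted p = 0.0491, edgeR). SNORD30 was at 5.06 ± 0.273 CPM in MM1R Veh and 2.96 ± 0.906 in TAK, a log2 fold change of -0.78 (SE 0.174, adjusted p = 0.00100, edgeR), and in MM1S it was -0.62 (SE 0.197, adjusted p = 0.0136, edgeR). The call of SNORD28 in MM1R was lost without MM1R Veh replicate 2 or MM1R TAK replicate 2, and that of SNORD30 in MM1S without MM1S Veh replicate 1 or MM1S TAK replicate 1. Both calls were also lost by the DESeq2 Wald test, and that of SNORD28 in MM1R with library size only. SNORD50B in SNHG5 fell in MM1S with a log2 fold change of -0.59 (SE 0.185, adjusted p = 0.0127, edgeR), while its host was at 0.02 (SE 0.0886). The call of SNORD50B was lost without MM1S Veh replicate 1 or MM1S TAK replicate 2, and by the DESeq2 Wald test.

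The sequences of these 3 C/D box snoRNAs are given because their counts fell with TAK against Veh in MM1S. They also had an entry under their own symbol among the transcripts of GENCODE release 29. In MM1R SNORD50B was at -0.21 (SE 0.184, adjusted p = 0.353, edgeR). With TAK added to Dex in MM1S, SNORD30 was at -0.65 (adjusted p = 0.0196, edgeR). SNORD28, at -0.26, and SNORD50B, at 0.30, did not pass there. Combo was above TAK for SNORD50B in MM1S, by 0.56 (SE 0.192, adjusted p = 0.0305, edgeR). Capitals mark the letters GATGA (the core of the C box) within the first 15 bases and CTGA (the D box) within the last 15 bases, read on the transcript strand.
SNORD28: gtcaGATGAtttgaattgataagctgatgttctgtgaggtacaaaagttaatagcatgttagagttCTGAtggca
SNORD30: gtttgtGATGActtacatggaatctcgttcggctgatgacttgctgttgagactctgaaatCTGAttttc
SNORD50B: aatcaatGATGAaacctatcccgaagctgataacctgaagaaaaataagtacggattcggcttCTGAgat
They lie on the minus strand of GRCh38 at chr11:62854621-62854695, chr11:62853663-62853732 and chr6:85677589-85677658 and are 75, 70 and 70 bases long. Both motifs at these places were found in 66% of the 288 SNORD transcripts of that release.

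In GAS5, 7 of the 10 snoRNAs were tested, and with Dex in MM1S 2 of them rose. SNORD79 went from 5.37 ± 0.120 CPM (SD, n = 2) in MM1S Veh to 7.62 ± 0.437 in Dex, a log2 fold change of 0.50 (SE 0.132, adjusted p = 0.00468, edgeR). SNORD78 changed by 0.55 (SE 0.204, adjusted p = 0.0363, edgeR), a call lost without MM1S Veh replicate 1 or MM1S Dex replicate 2. It was also lost by the DESeq2 Wald test and when only the groups compared were fitted. Of the other 5, 4 had positive values that did not pass, from 0.29 to 0.50, and SNORD77 was at -0.20. In MM1R the 7 values lay between -0.23 and 0.39 and none passed. The difference between the lines in the Dex response was -0.53 (SE 0.169, adjusted p = 0.0262, edgeR) for SNORD44 and -0.52 (SE 0.189, adjusted p = 0.0466, edgeR) for SNORD79, the same direction as GAS5. The call of SNORD44 held in 9 and that of SNORD79 in 2 of 15 other fits. In all, 1 of the 13 tested snoRNAs rose and 3 fell with TAK in MM1S, where 25.2% and 23.7% of all genes did. In MM1R 0 rose and 3 fell with TAK, against 25.8% and 27.6%, and with Dex in MM1S 2 rose and 0 fell, against 20.8% and 21.5%. These counts were near or below the shares among all genes, and the median log2 fold changes were -0.08, -0.17 and 0.02. The snoRNA that rose with TAK was SNORD50A in SNHG5, at 0.56 (adjusted p = 0.0488, edgeR), a call held in 2 of 11 other fits. SNORD44 in GAS5 fell in MM1R by 0.30 (adjusted p = 0.0442, edgeR). The call of SNORD44 held in 5 of 11 other fits and was lost when any 1 of the 4 libraries was left out. The count that fell was 1 in MM1S without MM1S Veh replicate 1, 1 in MM1R without MM1R Veh replicate 2 or MM1R TAK replicate 2, and 1 in each line by DESeq2.

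**Figure D4:**
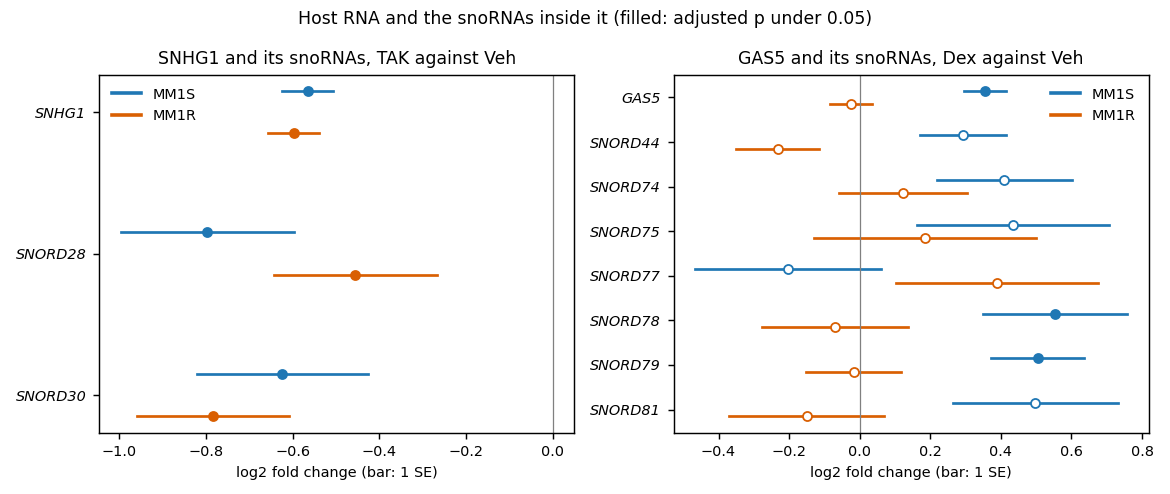
Log2 fold change with 1 SE of SNHG1 and its 2 tested snoRNAs with TAK (left) and of GAS5 and its 7 tested snoRNAs with Dex (right), MM1S in blue and MM1R in orange, filled where the adjusted p was under 0.05. SNHG1 and its snoRNAs lie left of 0 in both lines, whereas with Dex GAS5, SNORD78 and SNORD79 are the filled points and belong to MM1S.

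Other snoRNA hosts moved in both directions. Of 14 further hosts tested, 3 rose and 5 fell with TAK in MM1S and 1 rose and 6 fell in MM1R. The median log2 fold changes were -0.12 and -0.19. Among all genes, 25.2% rose and 23.7% fell with TAK in MM1S, and 25.8% and 27.6% did so in MM1R. With Dex in MM1S these shares were 20.8% and 21.5%. SNHG16 fell by 0.49 (SE 0.0641, adjusted p = 3.93e-06, edgeR) and 0.66 (SE 0.0628, adjusted p = 8.28e-08, edgeR) in the 2 lines, and SNHG3 and DANCR also fell in both. SNHG10 rose in both lines, by 0.67 (SE 0.113) and 0.40 (SE 0.115). The count that rose in MM1S was 1 without MM1S Veh replicate 1 or MM1S TAK replicate 2. With Dex in MM1S 6 rose and 1 (SNHG6) fell, at a median of 0.24, but without MM1S Dex replicate 2 the count that rose was 1 and without MM1S Veh replicate 1 it was 2.

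The mRNAs of proteins that build and modify snoRNPs, the particles of snoRNA and protein, were mostly lower with TAK. Of 15 tested, 10 fell and 1 rose in MM1S and 10 fell and 0 rose in MM1R, with median log2 fold changes of -0.41 and -0.56. Among all genes, 23.7% fell and 25.2% rose in MM1S, and 27.6% fell and 25.8% rose in MM1R. The mRNAs of NOP56 and NOP58, core proteins of the C/D particles, fell by 0.52 (SE 0.0767) and 0.47 (SE 0.0636) in MM1S. That of DKC1, the pseudouridine synthase of the H/ACA particles, fell by 0.61 (SE 0.0714) in MM1R. With Dex in MM1S 1 of the 15 rose (SHQ1) and 0 fell, against 20.8% and 21.5% of all genes. In the untreated lines 12 of the 15 were higher in MM1R than in MM1S and 0 were lower, at a median of 0.37. For all genes these shares were 25.6% and 22.6%. Over 11 other fits the count that fell with TAK ranged from 9 to 12 in each line.

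The mRNAs of paraspeckle proteins were mostly lower with TAK. Of 15 tested, 12 fell and 0 rose in MM1S and all 15 fell in MM1R, at medians of -0.23 and -0.26, and over 11 other fits the counts ranged from 9 to 13 and from 10 to 15. Among all genes, 23.7% fell and 25.2% rose with TAK in MM1S, and 27.6% fell and 25.8% rose in MM1R. NONO, a core paraspeckle protein, fell by 0.43 (SE 0.0592) and 0.50 (SE 0.0589), and NUDT21, a cleavage factor subunit, by 0.60 (SE 0.0732) and 0.59 (SE 0.0733). With Dex in MM1S 4 rose and 2 fell, against 20.8% and 21.5% of all genes. The mRNAs of the core proteins SFPQ and PSPC1 were among those that rose, at 0.17 (SE 0.0503) and 0.29 (SE 0.0909). By library size only, and also with MALAT1 and NEAT1 left out of the scaling, 2 rose and 5 fell. Without MM1S Veh replicate 1 or MM1S Dex replicate 2 the count that rose with Dex was 0, and without MM1S Veh replicate 2 it was 1.

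For nuclear speckle proteins, which share a compartment with MALAT1, the changes of the mRNAs were mixed. Of 13 tested, 5 rose and 6 fell with TAK in MM1S and 1 rose and 6 fell in MM1R. Among all genes, 25.2% rose and 23.7% fell with TAK in MM1S, and 25.8% and 27.6% did so in MM1R. The mRNA of SON, the speckle scaffold protein, rose by 0.24 (SE 0.0511) and 0.21 (SE 0.0511). Those of the splicing factors SRSF2 and SRSF1 fell in both lines, SRSF2 by 0.59 (SE 0.0768) and 0.68 (SE 0.0766). The count that rose in MM1S was 2 without MM1S Veh replicate 2 and 0 when only the 2 groups were fitted. Of the 11 tested genes of RNase P and RNase Z, the enzymes that cut the MALAT1 3′ end, 1 rose and 3 fell with TAK in MM1S and 1 rose and 7 fell in MM1R, and without MM1S Veh replicate 1 the count that fell in MM1S was 1. The gene that rose in both was RPPH1, the RNA subunit of RNase P, at 0.52 (SE 0.0926) and 0.25 (SE 0.0924), and its MM1R call was lost when any 1 of the 4 libraries was left out and with MALAT1 and NEAT1 left out of the scaling.

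Some other lncRNAs, from a list that was not limited to RNAs shown to be nuclear in these cells, rose with TAK. Of 7 tested, 3 rose and 0 fell with TAK in MM1S and 5 rose and 0 fell in MM1R. The medians were 0.50 and 1.03, beside 0.04 and 0.00 over all genes. Among all genes, 25.2% rose and 23.7% fell with TAK in MM1S, and 25.8% and 27.6% did so in MM1R. OIP5-AS1 and NORAD, named after their values were seen, passed in neither line, at -0.03 and 0.05 in MM1S and -0.12 and -0.03 in MM1R. MIAT rose by 0.93 (SE 0.0590) and 1.03 (SE 0.0591), LINC-PINT by 0.68 (SE 0.108) and 1.34 (SE 0.109) and KCNQ1OT1 by 0.51 (SE 0.117) and 1.23 (SE 0.119). Of the small structural RNAs listed, RPPH1, RMRP and TERC were tested, and 3 rose in MM1S and 1 in MM1R, with 1 in MM1S without MM1S Veh replicate 1.

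Among the mRNAs of 20 factors of nonsense-mediated decay, 3 rose and 4 fell with TAK in MM1S. In MM1R 6 rose and 4 fell with TAK, and 5 rose and 5 fell with Dex in MM1S. These counts were near the shares among all genes (25.2% and 23.7%, 25.8% and 27.6%, 20.8% and 21.5%). Over 11 other fits these counts ranged from 2 to 3 and 2 to 4, from 3 to 6 and 1 to 6, and from 2 to 7 and 3 to 6. Of the 16 listed mRNAs that start with a pyrimidine run and encode translation factors and the like, 0 rose and 5 fell with TAK in MM1S and 0 rose and 11 fell in MM1R, with 3 to 6 and 5 to 15 over 11 other fits. In MM1R the count that fell was 6 without either Veh library and 5 without MM1R TAK replicate 1. NAP1L1 fell by 0.50 (SE 0.0519) and 0.61 (SE 0.0520). With Dex in MM1S 1 rose (EIF3F) and 2 fell. The shares among all genes given above apply to these counts too.

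The genes within 100 kb of NEAT1 and MALAT1 moved in both directions with TAK. All 12 were tested, and 5 rose and 2 fell with TAK in MM1S and 3 rose and 2 fell in MM1R. Among all genes, 25.2% rose and 23.7% fell with TAK in MM1S, and 25.8% and 27.6% did so in MM1R. LTBP3, a binding protein of latent TGF-β, rose by 0.58 (SE 0.0986) in MM1S and 0.36 (SE 0.103) in MM1R, while EHBP1L1 fell by 0.44 (SE 0.0867) and 0.38 (SE 0.0849). With Dex in MM1S 7 of the 12 rose and 0 fell, against 20.8% and 21.5% of all genes. The median was 0.40 beside 0.01 over all genes, and EHBP1L1 was then higher by 0.71 (SE 0.0849). The count that rose with Dex was 4 without MM1S Veh replicate 1. With TAK in MM1S it was 2 without MM1S Veh replicate 1 or MM1S TAK replicate 2 and 3 without MM1S Veh replicate 2, and in MM1R it was 0 without MM1R Veh replicate 1 and 1 without MM1R Veh replicate 2 or MM1R TAK replicate 1.

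For each lncRNA, the genes with the most similar pattern were taken by Pearson correlation of log2 CPM over the 16 libraries, among 9636 genes. The values are descriptions, since the libraries share their groups. Closest to MALAT1 were PARP9 (r = 0.993), PATL2 (0.989) and DDX60L (0.987), and closest to NEAT1 were CFLAR (0.976), HECTD4 (0.963) and VPS13D (0.960). Among the genes close to TUG1 were JMJD1C (0.978) and RC3H1 (0.966). GAS5 was closest to SFT2D3 (0.983), NADSYN1 (0.972) and SRSF5 (0.970), and SNHG1 to MTHFD1L (0.988), FOXRED1 (0.988) and IARS (0.988). SNHG5 was closest to RPS14 (0.976), RPL7A (0.958) and TMEM256 (0.947), SNHG8 to PMVK (0.946), CCDC12 (0.915) and PPP1R35 (0.902), and SNHG15 to RNPEP (0.967), GRK6 (0.967) and SLC2A3 (0.961). SNHG12, with the narrowest range of levels, had the weakest neighbours, with TNK2 (0.766), JUN (0.737) and FZD7 (0.697). Among the lncRNAs themselves, r over the 16 libraries was 0.64 between MALAT1 and NEAT1, -0.82 between MALAT1 and SNHG1, 0.83 between NEAT1 and TUG1 and 0.79 between NEAT1 and GAS5.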

How the data were processed

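Total RNA of the 16 libraries was isolated with a miRNeasy kit, depleted of ribosomal RNA (Ribo-Zero) and sequenced. Per the labels, the submitters' processing notes name bcl2fastq 2.18.0.12, STAR 2.6.0, HTSeq 0.6.0, edgeR 3.28.1 and the build hg19. The authors deposited 1 table of raw read counts per gene and library, with gene positions and lengths, and it was used as deposited.

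Counts were fitted with edgeR 4.0.16 (R 4.3.3, limma 3.58.1): filterByExpr by group, TMM scaling, and robust quasi-likelihood F tests with 1 term for each of the 8 groups, leaving 8 residual degrees of freedom. P-values were adjusted over 14215 genes (Benjamini-Hochberg, threshold 0.05) for 13 comparisons. CPM used TMM library sizes, and log2 CPM a prior count of 2. Levels between genes were compared per kb of the table's length. SDs are over 2 libraries.

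The members and gene lists were chosen with earlier results of these data known. Genes named in the text are the members, the 3 genes closest to each by correlation (mean log2 CPM of at least 3), up to 3 risen and 3 fallen per list with the smallest adjusted p, the Dex check and the genes within 100 kb of NEAT1 and MALAT1. Some results under this rule and among the cell markers are not reported here. SNHG14 and SNHG19 had no row under these symbols, nor had 3 of the structural RNAs, and RPP21 and MEG3 did not pass the filter.

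Alternatives were RLE scaling, library size only, scaling without MALAT1 and NEAT1, no filter, the replicate number as a block, fits of only the groups compared, the DESeq2 1.42.0 Wald test, and leaving out each library. Their use on snoRNAs and gene lists was added after the data had been seen. Scripts were tested on simulated data. Sequences came from RefSeq (GRCh38.p14, annotated starts) and GENCODE release 29 (GRCh38). Of the 9 lncRNAs, 6 matched 1 RefSeq entry each, of which 4 had a start within 10 bases of the counted model by distance from the far end, MALAT1 matched more than 1, and NEAT1 and SNHG15 were not matched. Of the 12 tested C/D box snoRNAs, 4 matched a GENCODE transcript by symbol.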

Additional observations from a re-analysis of the deposited data

Results flagged for a closer look

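The response of GAS5 to Dex differed between the lines by a test of the difference itself: MM1R minus MM1S was -0.38 on the log2 scale (SE 0.0847, adjusted p = 0.00240 by edgeR's interaction test). For this difference 28.1% of all genes tested were called in either direction, and 13.1% in that of GAS5. Dex libraries lay above Veh in MM1S, at 195 and 204 against 158 and 154 CPM. In MM1R they were close to Veh, at 145 and 146 against 146 and 149 CPM, a log2 fold change of -0.02 that did not pass. With Dex in that line 0% of all genes passed, and the study describes glucocorticoid receptor expression as absent there. Whether the difference between the lines is particular to GAS5 was not tested. The groups had 2 libraries each, so no library was examined as an outlier of its group.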

How the results depend on the processing

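Of 224 values of the called pairs of lncRNA and comparison under other settings, 197 stayed past the threshold in the same direction, 27 fell short of it and 0 changed sign. Of 1048 values of pairs not called, 59 passed under another setting. The cause was not tested for any of the following counts of called lncRNAs out of 8. The fit with no filter gave warnings of negative F values, so its results for NEAT1 are not reliable. With library size only, 5 were called between the untreated lines (3 in the report) and 1 for the departure from additivity in MM1S (0), and with MALAT1 and NEAT1 left out of the scaling 1 was called for that departure. With no filter, 1 was called with Dex in MM1R (0), 1 for combo against TAK in MM1S (2), 4 for combo against Dex in MM1S (2), 2 for the difference in the TAK response (0), 2 for the difference in the Dex response (1), and 1 for the departure in each line (0). With only the groups compared, 1 was called for combo against TAK in MM1S, 6 between the untreated lines and 1 for the difference in the TAK response.

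With 1 library left out, the counts ranged from 2 to 4 for TAK and for Dex in MM1S, 3 to 3 for TAK in MM1R, 1 to 3 for combo against TAK and 1 to 5 for combo against Dex in MM1S, 1 to 2 for combo against Dex in MM1R, 2 to 3 between the untreated lines, 0 to 2 for the difference in the TAK response, 1 to 3 for that in the Dex response and 0 to 2 for the departure in MM1S. They stayed at 0 for Dex, for combo against TAK and for the departure in MM1R. Without 1 MM1R Dex library, Dex against Veh in MM1R ranged from -0.011 to 0.12 for MALAT1 and from -0.017 to 0.61 for NEAT1.

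The labels do not say that a replicate number marks a shared batch. Deviations of same-numbered libraries correlated at 0.152 to 0.618 in MM1S and 0.072 to 0.252 in MM1R over 6 pairs each. With the replicate number as a block, 6 lncRNAs were called for combo against Dex in MM1S, 1 for the difference in the TAK response (GAS5, -0.28, adjusted p = 0.0122, edgeR) and 1 for the departure in MM1S. Over all genes the block moved the count for the difference in the TAK response from 592 to 2061 and for the departure in MM1S from 2125 to 3579.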
